A study of Mus musculus with 8 samples.

Results

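SR proteins are splicing factors that bind pre-mRNA through RNA recognition motifs and recruit the splicing machinery through domains rich in arginine and serine. This gene set held 10 members: Srsf1, Srsf2, Srsf4, Srsf5, Srsf6, Srsf7, Srsf9, Srsf10, Srsf11 and the SR-related gene Tra2b. They were taken by name from the 30419 gene names of the count table. The SR genes Srsf3 and Srsf12 were not in the set, and their values are given with the related genes. All 10 had a row in the table, and 9 of them had enough counts to be tested. Srsf4 did not.

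RNA was sequenced from early-passage fibroblasts grown from mouse embryos at stage E13.5, in 8 libraries that form 4 groups of 2 (libraries A and B). The groups were Dino mutant cells (DINO loxP/loxP, lox sites at the Dino locus on both alleles) with doxorubicin, the same cells without it (mutant control), WT cells (DINO+/+) with doxorubicin, and WT cells without it (WT control). Doxorubicin, a DNA-damaging topoisomerase poison, was given at 0.2 µg/mL for 8 h, and the labels call the control both vehicle and none. Dino is a p53-induced long noncoding RNA gene beside Cdkn1a, and the level of Dino itself was not analysed here. No label says how many embryos or cultures the libraries came from, so the spread between A and B may be technical. The labels name an exome-capture library kit as well as 3' sequencing, and which of these made the libraries was not resolved.

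SR proteins define exons and choose splice sites, and some of them also take part in mRNA export and translation. Their activity is set by SRPK and CLK kinases, which phosphorylate the arginine-serine domains. Most SR genes carry highly conserved alternative exons or introns whose inclusion brings in an early stop codon and sends the transcript to nonsense-mediated decay, a loop through which SR proteins limit their own level. In the GENCODE annotation of GRCm38, 9 of the 10 members had at least 1 transcript annotated as a decay substrate (Srsf10 had none), against 20.8% of 21951 protein-coding genes. The table counts reads per gene name, so productive and decay-prone transcripts of a member were summed.

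The promoter windows of 5 members are shown. The first 4 had the largest falls on average over both genotypes, while Srsf5 was not called in either genotype. Each window runs from 250 bases before to 50 bases after the RefSeq start, on GRCm38.p6, 5′ to 3′ on the gene's strand. Capitals mark every match, on either strand, to 7 motifs. The E-box of the MYC family was searched as CACGTG. The box bound by the factor NF-Y was searched as CCAAT. The site of E2F cell cycle factors was searched as TTTCCCGC or TTTGGCGC. For NRF1, a factor of housekeeping promoters, the core CGCATGCG was used. Sites of the large ETS family were searched with the letters CCGGAAG. The cyclic AMP element was searched as TGACGTCA, and the p53 element by its consensus.
Srsf1, chr11:88047123-88047422, plus strand: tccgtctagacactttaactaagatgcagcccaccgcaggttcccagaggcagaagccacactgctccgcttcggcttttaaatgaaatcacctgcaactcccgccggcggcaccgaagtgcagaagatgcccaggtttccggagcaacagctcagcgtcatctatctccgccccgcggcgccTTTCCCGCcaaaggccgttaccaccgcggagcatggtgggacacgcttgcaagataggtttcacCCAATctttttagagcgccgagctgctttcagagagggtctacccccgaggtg
Srsf2, chr11:116853045-116853344, minus strand: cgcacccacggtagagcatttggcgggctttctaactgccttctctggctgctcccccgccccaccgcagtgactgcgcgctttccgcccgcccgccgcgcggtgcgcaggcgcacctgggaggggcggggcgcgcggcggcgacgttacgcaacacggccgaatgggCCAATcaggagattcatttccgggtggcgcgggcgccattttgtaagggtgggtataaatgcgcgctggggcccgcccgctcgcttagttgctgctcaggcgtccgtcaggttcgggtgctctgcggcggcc
Srsf10, chr4:135855821-135856120, plus strand: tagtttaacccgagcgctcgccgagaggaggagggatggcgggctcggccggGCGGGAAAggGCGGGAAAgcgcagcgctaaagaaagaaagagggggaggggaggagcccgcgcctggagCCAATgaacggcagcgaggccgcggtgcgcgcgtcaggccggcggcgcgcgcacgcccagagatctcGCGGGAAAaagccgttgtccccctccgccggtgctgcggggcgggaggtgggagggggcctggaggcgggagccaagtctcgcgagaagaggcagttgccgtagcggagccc
Tra2b, chr16:22265956-22266255, minus strand: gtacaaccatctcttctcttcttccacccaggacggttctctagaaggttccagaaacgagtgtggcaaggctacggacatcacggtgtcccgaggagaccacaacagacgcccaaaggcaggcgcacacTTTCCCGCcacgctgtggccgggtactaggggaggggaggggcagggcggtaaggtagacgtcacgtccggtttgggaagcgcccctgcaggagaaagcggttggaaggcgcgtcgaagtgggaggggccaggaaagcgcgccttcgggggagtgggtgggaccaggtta
Srsf5, chr12:80945249-80945548, plus strand: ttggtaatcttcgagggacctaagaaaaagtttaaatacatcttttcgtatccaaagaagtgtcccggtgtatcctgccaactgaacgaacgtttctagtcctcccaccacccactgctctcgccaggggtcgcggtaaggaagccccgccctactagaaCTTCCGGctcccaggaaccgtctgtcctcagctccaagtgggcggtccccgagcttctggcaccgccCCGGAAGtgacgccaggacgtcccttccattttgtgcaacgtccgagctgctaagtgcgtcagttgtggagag

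An E2F string was found in the windows of 3 of the 10 members, Srsf1 (67 bases before the start), Srsf10 (198, 188 and 62 bases before) and Tra2b (120 bases before), against 1.80% of 27025 genes with a window. CCAAT was present for Srsf1, Srsf2 and Srsf10 (3 of 10, against 41.1% of genes). The ETS string was present for Srsf4, Srsf5, Srsf7 and Srsf11 (4 of 10, against 9.93%), and the NRF1 core for Srsf7 and Srsf11 (2 of 10, against 2.07%). No member's window held an E-box (8.09% of genes), the cyclic AMP element (2.03%) or the p53 element (0.0740%). No match overlapped another. A match describes letters in the window and is no evidence of binding, and its relation to the responses was not tested.

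The libraries held 25482805 to 33285171 counts. Levels are CPM, counts scaled to the library size. Mdm2 and Cdkn1a, p53 targets that check the treatment, rose in both genotypes (log2 fold change 2.91 and 2.50 in mutant, 3.09 and 2.46 in WT cells). All 10 fibroblast markers were present, with a summed level of 3960 to 4190 CPM in mutant doxorubicin, 4290 to 4460 in mutant control, 4160 to 4440 in WT doxorubicin and 4380 to 4740 in WT control libraries. The 9 macrophage and leukocyte markers in the table summed to 37.0 to 40.7, 31.4 to 31.5, 33.9 to 35.4 and 23.1 to 24.6 CPM in the same order, and 5 epithelial markers to at most 0.813 CPM in any library. The 5 endothelial markers, of which 3 were tested and 1 rose in each genotype, summed to 5.68 to 6.25 CPM in mutant doxorubicin, 1.61 to 1.93 in mutant control, 6.88 to 11.3 in WT doxorubicin and 2.16 to 3.23 in WT control libraries. The 5 neural markers summed to 44.9 to 45.9, 59.1 to 59.4, 34.4 to 36.2 and 33.2 to 34.0 CPM in the same order, and 5 skeletal muscle markers to at most 1.44 CPM in any library. Summed macrophage and endothelial markers were thus higher with doxorubicin in the same libraries in which SR genes were lower, and the neural sum was higher in mutant than in WT libraries. Of 8 tested macrophage markers, 1 was called higher in mutant and 4 in WT cells, and none lower. Of 10 fibroblast markers, 5 were called lower in each genotype, and 1 higher in mutant and 3 in WT cells. Over all genes tested, 25.9% were called lower and 28.3% higher in mutant cells, and 28.1% and 29.3% in WT cells. The part of the markers in the SR values was not tested. WT doxorubicin libraries A and B differed most from each other, with a chi-square over its degrees of freedom of 18.2, against 5.43 in mutant doxorubicin, 5.56 in mutant control and 6.16 in WT control. Results of SR members are therefore also given without each of these 2 libraries where a member's call changed. Genes of the related lists were not checked in this way. Mutant and WT libraries also stood apart in sex-linked genes, whose values are given with the genotype comparisons.

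Doxorubicin lowered most SR genes in cells of both genotypes. In mutant cells 7 of the 9 tested members fell and 2 were not called, with edgeR's quasi-likelihood test adjusted over all 12255 genes, where 25.9% of genes were called lower and 28.3% higher. In WT cells the count was also 7 of 9, where 28.1% of genes were called lower and 29.3% higher. The members were chosen with earlier results of these data known, so these counts describe the set and do not test it. No member was called higher in either genotype, with edgeR, DESeq2 or limma-voom, and none rose at an unadjusted p under 0.05 in edgeR. Srsf12, an SR gene outside the set, was called higher in both genotypes by edgeR. The median log2 fold change of the 9 members was -0.85 in mutant and -0.86 in WT cells, and that of all genes tested was 0.0118 and 0.00682. The values are CPM on TMM-scaled library sizes, that is, shares of a library's counts, and a lower RNA content per cell cannot be told apart here from fewer cells of a type.

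**Figure D1:**
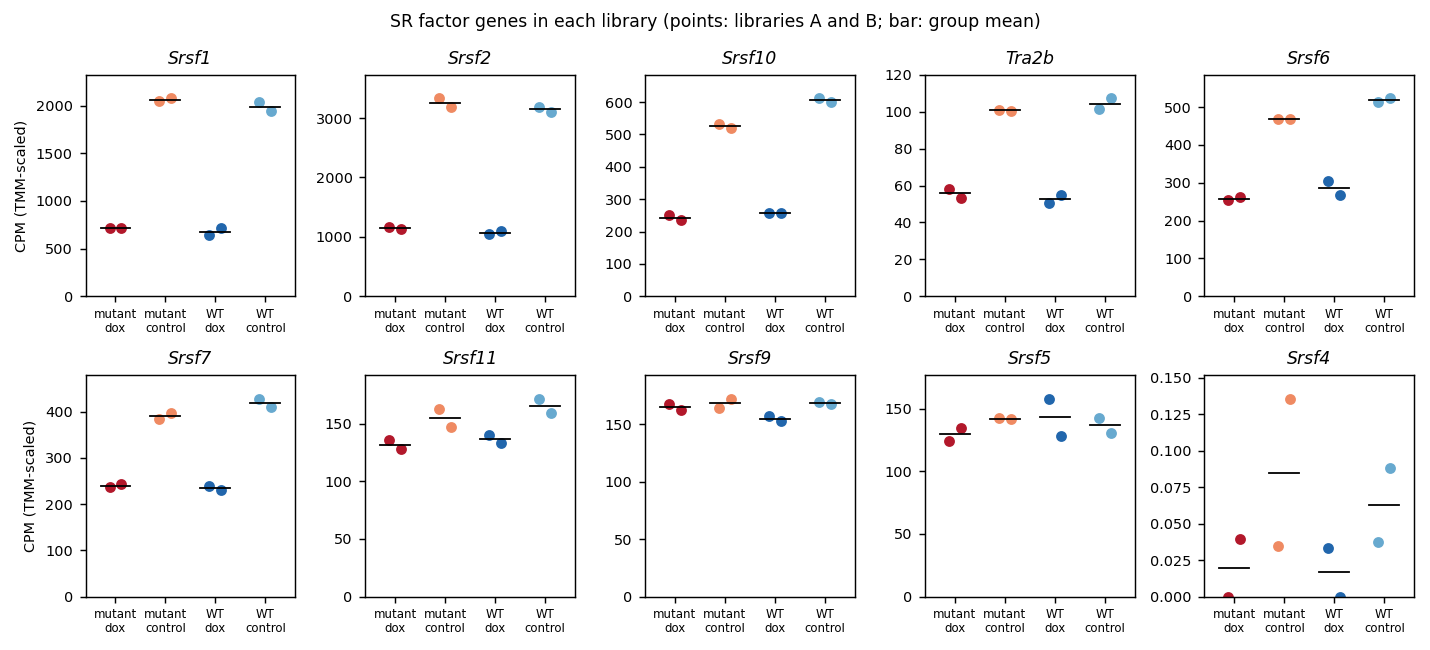
CPM of each SR factor gene (vertical axes from 0, own scale per gene) in the 8 libraries, by group; points are libraries A and B, bars are group means. For 6 genes, Srsf1 to Srsf7 in the order shown, the doxorubicin libraries lie far below the controls of their genotype, and Srsf4 has at most 4 counts in any library.

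Srsf1 and Srsf2 had the deepest falls. Srsf1 encodes the shuttling SR protein also known as SF2/ASF, which acts in constitutive splicing and in the choice between alternative splice sites. It had 711 and 714 CPM in mutant doxorubicin libraries, against 2047 and 2076 CPM in mutant controls, and 640 and 714 CPM in WT doxorubicin libraries, against 2033 and 1942 CPM in WT controls. All 4 treated libraries lay far below every control library, with treated means at 34.5% of the control mean in mutant and 34.0% in WT cells. The log2 fold change was -1.53 ± 0.07 (SE) in mutant and -1.55 ± 0.07 in WT cells, with edgeR adjusted p of 4.68e-14 and 3.28e-14. Of the 12255 genes tested, 271 had a lower log2 fold change than Srsf1 in mutant cells and 298 in WT cells.

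Srsf2 encodes a nuclear SR protein that marks splicing speckles. It had 1160 and 1131 CPM in mutant doxorubicin libraries, against 3332 and 3181 CPM in mutant controls, and 1047 and 1091 CPM in WT doxorubicin libraries, against 3190 and 3104 CPM in WT controls. The treated libraries of each genotype did not overlap with its controls, and the treated mean was 35.2% of the control mean in mutant and 34.0% in WT cells. The log2 fold change was -1.51 ± 0.06 in mutant and -1.56 ± 0.06 in WT cells (edgeR adjusted p = 2.27e-14 and 1.22e-14). In GRCm38 the gene overlaps Mettl23 and Mfsd11, which lie on the opposite strand, and no strand setting is given in the sources used here. Those genes had at most 83 and 325 counts in any library, while Srsf2 had at least 28617, and they were not called in either genotype. Whether reads in the overlap were left uncounted was not tested. Srsf1, Srsf4 and Srsf11 also overlap annotated genes in GRCm38.

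Srsf10 and Tra2b followed. Srsf10 encodes an SR-like protein that turns into a general splicing repressor when it is dephosphorylated, as in heat shock. It had 250 and 234 CPM in mutant doxorubicin libraries, against 531 and 519 CPM in mutant controls, and 256 and 256 CPM in WT doxorubicin libraries, against 612 and 600 CPM in WT controls. The groups did not overlap, and Srsf10 had a log2 fold change of -1.12 ± 0.07 in mutant and -1.24 ± 0.07 in WT cells (edgeR adjusted p = 4.80e-12 and 6.47e-13). Tra2b, whose product binds purine-rich exonic enhancers and activates exon inclusion, had 58.4 and 53.2 CPM in mutant doxorubicin libraries, against 101 and 100 CPM in mutant controls. In WT cells it had 50.4 and 54.9 CPM with doxorubicin and 102 and 107 CPM without. For Tra2b the log2 fold change was -0.85 ± 0.08 in mutant and -0.99 ± 0.08 in WT cells (edgeR adjusted p = 6.35e-09 and 4.76e-10), with no overlap between treated and control libraries.

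Srsf6 and Srsf7 fell to between 55.1% and 61.5% of the control mean. Srsf6 encodes an SR protein that regulates alternative exons. It had 254 and 263 CPM in mutant doxorubicin libraries, against 469 and 467 CPM in mutant controls, and 305 and 267 CPM in WT doxorubicin libraries, against 513 and 523 CPM in WT controls. Its log2 fold change was -0.86 ± 0.07 in both genotypes (edgeR adjusted p = 1.12e-09 in mutant and 9.19e-10 in WT cells). Srsf7, whose product carries a zinc knuckle and also serves as an adaptor for mRNA export, had 238 and 243 CPM in mutant doxorubicin libraries, against 384 and 397 CPM in mutant controls. In WT cells it had 238 and 230 CPM with doxorubicin and 428 and 411 CPM without. For Srsf7 the log2 fold change was -0.70 ± 0.06 in mutant and -0.84 ± 0.06 in WT cells (edgeR adjusted p = 7.69e-09 and 3.46e-10). Treated and control libraries of both genes did not overlap.

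Srsf11, which encodes an SR-related protein that associates with the U2 auxiliary factor, fell by a smaller amount. It had 136 and 128 CPM in mutant doxorubicin libraries, against 163 and 147 CPM in mutant controls, and 140 and 133 CPM in WT doxorubicin libraries, against 172 and 159 CPM in WT controls. The groups did not overlap, but the gap between the lower mutant control and the higher treated mutant library was narrow. For Srsf11 the log2 fold change was -0.23 ± 0.07 in mutant and -0.27 ± 0.07 in WT cells (edgeR adjusted p = 0.0111 and 0.00315). In mutant cells Srsf11 was no longer called once control library A was left out (log2 fold change -0.16, edgeR adjusted p = 0.167) or once doxorubicin library B was (-0.19, adjusted p = 0.102).

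Srsf9 and Srsf5 were not called in either genotype. Srsf9 had 168 and 162 CPM in mutant doxorubicin libraries, against 164 and 172 CPM in mutant controls, and 157 and 153 CPM in WT doxorubicin libraries, against 170 and 168 CPM in WT controls. Its groups overlapped in mutant cells and lay apart in WT cells. The log2 fold change was -0.03 in mutant cells (95% interval -0.17 to 0.11, edgeR adjusted p = 0.745) and -0.12 in WT cells (-0.26 to 0.02, adjusted p = 0.121), and with upper-quartile scaling the WT value was called at -0.17 (adjusted p = 0.0290). Srsf5 had 124 and 135 CPM in mutant doxorubicin libraries, against 143 and 142 CPM in mutant controls, and 158 and 128 CPM in WT doxorubicin libraries, against 143 and 131 CPM in WT controls. WT doxorubicin libraries A and B lay on opposite sides of both controls. The log2 fold change was -0.13 in mutant cells (95% interval -0.31 to 0.05, edgeR adjusted p = 0.202) and 0.07 in WT cells (-0.11 to 0.24, adjusted p = 0.537). Without WT doxorubicin library B the WT value was called higher (0.21, edgeR adjusted p = 0.0341), and without library A it was -0.09 (adjusted p = 0.374).

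Srsf4, the gene of the large SR protein of this set, was at or near 0 in the table. It had 0 and 1 counts in mutant doxorubicin libraries, 1 and 4 counts in mutant controls, 1 and 0 counts in WT doxorubicin libraries and 1 and 3 counts in WT controls. A count of 0 allows up to 3 counts, which is 0.0880 to 0.120 CPM depending on the library, and covers counting error only. All groups stood at about this limit, so no fold change is given, and whether the gene was silent or its reads were not assigned to it cannot be told apart. In GRCm38 Srsf4 overlaps A930004J17Rik on its own strand and Gm12992 on the opposite strand, and the part of these overlaps in its counts was not tested.

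**Figure D2:**
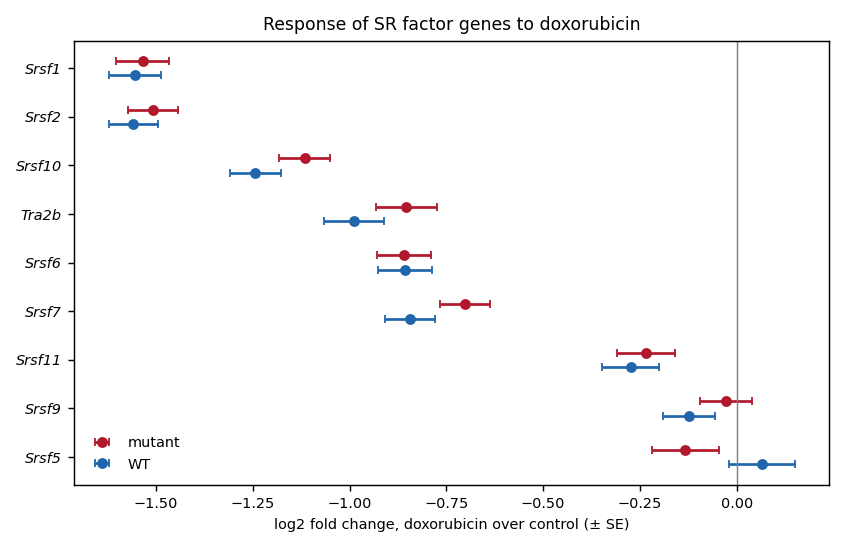
log2 fold change of doxorubicin over control (horizontal axis) with its SE for the 9 tested SR factor genes in mutant (upper point) and WT cells (lower point), n = 2 libraries per group. Srsf1 and Srsf2 lie near -1.5 in both genotypes, and Srsf9 and Srsf5 lie near 0.

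The members were ordered by the size of the fall. For each genotype the log2 ratio of each treated to each control library gives 4 values per gene, and neighbours in the order were set side by side by the range of these values. The 4 values share the 2 libraries of each group and are not independent. Their range describes these libraries and is no measure of error. In mutant cells Srsf1 (-1.55 to -1.52) and Srsf2 (-1.56 to -1.46) overlapped, and Srsf10 (-1.18 to -1.05) lay apart from both neighbours. Srsf6 (-0.89 to -0.83) and Tra2b (-0.93 to -0.78) overlapped with each other, and Srsf7 (-0.74 to -0.66) lay apart from its neighbours. In WT cells Srsf2 (-1.61 to -1.51) overlapped with Srsf1 (-1.67 to -1.44), and Srsf10 (-1.26 to -1.23) again lay apart. Tra2b (-1.09 to -0.89), Srsf6 (-0.97 to -0.75) and Srsf7 (-0.90 to -0.79) overlapped in that order. Srsf11 (-0.37 to -0.18) lay apart in WT cells but overlapped with Srsf5 (-0.20 to -0.07) in mutant cells, where its own range was -0.35 to -0.12. The 95% intervals of the fit separated fewer genes. Those of Srsf10 (-1.251 to -0.98) and Tra2b (-1.015 to -0.691) overlapped in mutant cells. They also did in WT cells (-1.378 to -1.108 and -1.149 to -0.827). Tra2b and Srsf7 (-0.836 to -0.566) overlapped in mutant cells, and Srsf11 (-0.428 to -0.121) and Srsf9 (-0.262 to 0.015) in WT cells. The intervals of Srsf1 and Srsf2 lay below that of Srsf10 in both genotypes.

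Across the 8 libraries, which share 4 groups and 2 genotypes, the members that fell were correlated with each other. These libraries are split by treatment, so a shared fall alone gives a high r, and variation within groups was not examined. Pearson's r of log2(CPM + 1) between Srsf1 and Srsf2 was 0.999, as a description of libraries split by treatment. Tra2b had an r of 0.993 with each of them. Srsf5 had an r of at most 0.295 with any other member and of -0.08 with Srsf9. Outside the members, the genes with the profile most like that of Srsf1 were Nrp2, a semaphorin and VEGF co-receptor gene (r = 0.9992), Eif4b, a translation initiation factor gene (0.999), and Fzd2, a Wnt receptor gene (0.9986). Such values were common, since 246 of the genes tested had an r above 0.99 with Srsf1. Their treated means were 40.6%, 42.8% and 21.9% of the control mean in mutant cells, and 39.1%, 41.9% and 18.8% in WT cells. No member was called higher on average, so no profile was sought for a rising member.

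**Figure D3:**
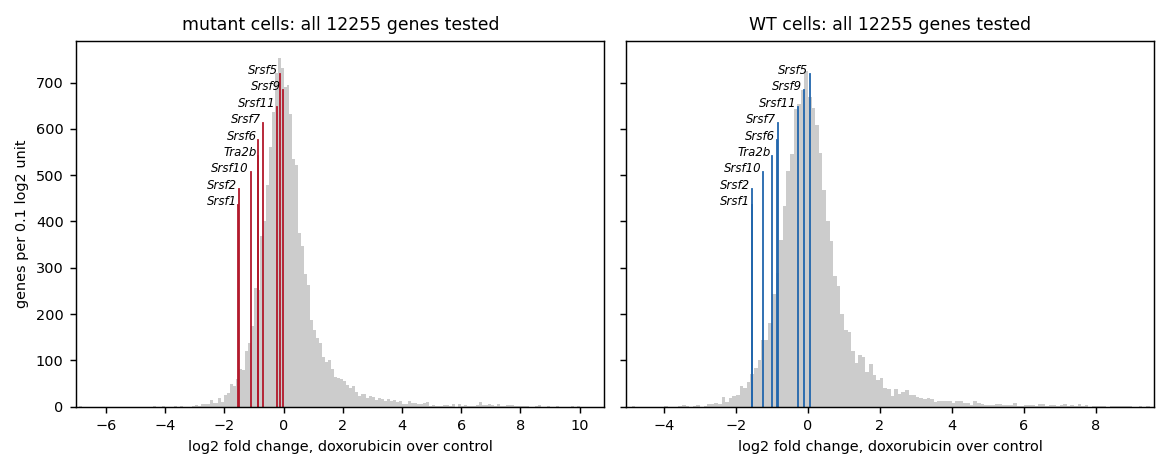
Histogram of log2 fold changes of doxorubicin over control for all 12255 genes tested (bins of 0.1) in mutant (left) and WT cells (right), with a vertical line for each tested SR factor gene; line heights only separate the labels. Srsf1, Srsf2 and Srsf10 lie in the lower tail in both genotypes, and Srsf5, Srsf9 and Srsf11 lie near the middle.

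Whether the fall depended on the Dino locus was asked with the difference between the responses, mutant minus WT. None of the 9 members was called, with edgeR, DESeq2 or limma-voom, and none had an unadjusted p under 0.05 in edgeR, in a comparison that called 0.0734% of all genes. The difference was 0.02 for Srsf1 (95% interval -0.17 to 0.22), 0.05 for Srsf2 (-0.13 to 0.23) and -0.00 for Srsf6 (-0.21 to 0.20). It was 0.13 for Srsf10 (-0.06 to 0.32), 0.14 for Tra2b (-0.09 to 0.36), 0.14 for Srsf7 (-0.05 to 0.33) and -0.20 for Srsf5 (-0.45 to 0.05). For Srsf1 and Srsf2 the interval was thus narrow beside a fall of about 1.5 log2 units, and the edgeR adjusted p of the 9 members ran from 0.962 to 1. These intervals rest on the spread between libraries A and B, which may be technical and need not cover that between embryos or cultures. Mutant and WT libraries also differed in sex-linked genes, given below, which cannot be told apart from the Dino locus here.

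With doxorubicin, mutant and WT cells were compared directly, in libraries that the responses also use. No member was called by edgeR, DESeq2 or limma-voom, where 7.74% of all genes were called by edgeR. Srsf6 was the only member with an unadjusted p under 0.05 in edgeR, at 254 and 263 CPM in mutant and 305 and 267 CPM in WT doxorubicin libraries (log2 difference -0.15 ± 0.07, adjusted p = 0.247). Without WT doxorubicin library B, Srsf6 (-0.24, edgeR adjusted p = 0.0298) and Srsf5 (-0.28, adjusted p = 0.0264) were called lower in mutant cells.

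Without doxorubicin, no member was called by edgeR between mutant and WT control libraries, where 5.92% of all genes were called. Srsf10 and Srsf6 had an unadjusted p under 0.05. Srsf10 had 531 and 519 CPM in mutant and 612 and 600 CPM in WT controls, without overlap (log2 difference -0.21 ± 0.06, edgeR adjusted p = 0.0611). It was called lower in mutant cells by DESeq2 (adjusted p = 0.0390) and limma-voom (adjusted p = 0.0396), by edgeR with a filter of 5 CPM in 2 libraries (0.0313) and on the 4 control libraries alone (0.0222), and without WT doxorubicin library A (0.0389) or B (0.0409). Srsf6 had 469 and 467 CPM in mutant and 513 and 523 CPM in WT controls (log2 difference -0.15 ± 0.07, edgeR adjusted p = 0.316).

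The genotypes also differed in sex-linked genes in these libraries. Xist was at 522 ± 74.5 CPM with and 233 ± 29.4 CPM without doxorubicin in mutant cells, and at 0.304 ± 0.102 and 0.277 ± 0.0236 CPM in WT cells (SD, n = 2). The Y-linked gene Ddx3y was at 59.6 ± 1.31 and 74.0 ± 0.00800 CPM in mutant and at 460 ± 17.5 and 546 ± 48.4 CPM in WT cells, again with and without doxorubicin. Summed neural markers were at 44.9 to 45.9 CPM in mutant and 34.4 to 36.2 CPM in WT libraries with doxorubicin, and at 59.1 to 59.4 and 33.2 to 34.0 CPM without. The part of these differences in the values of Srsf10 and Srsf6 was not tested.

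**Figure D4:**
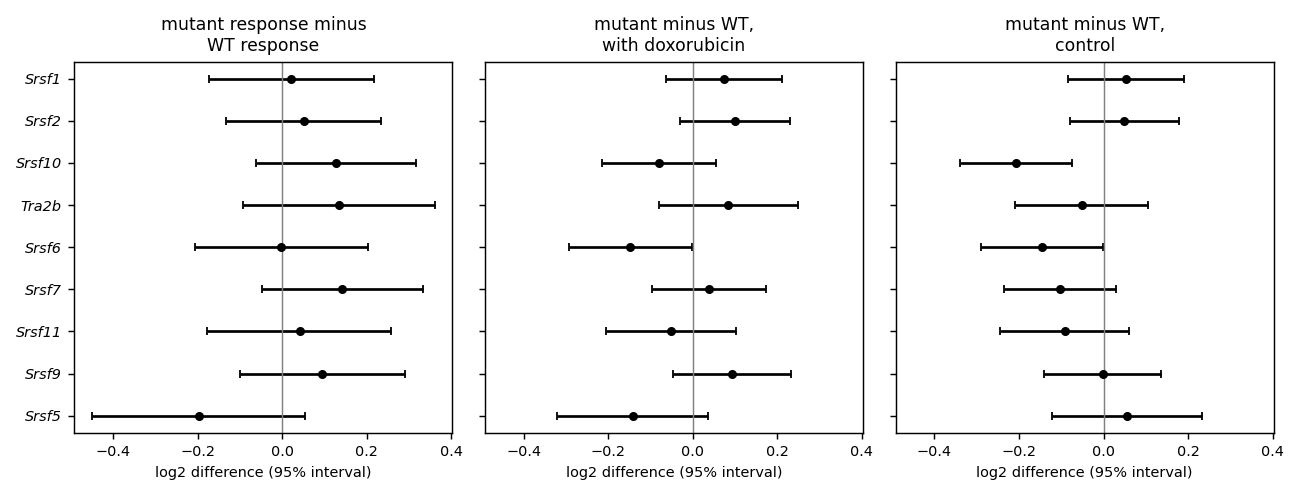
Log2 differences (horizontal axes) with 95% intervals for the 9 tested SR factor genes: the mutant minus the WT response (left), mutant minus WT with doxorubicin (middle) and mutant minus WT control (right). Nearly every interval covers 0, apart from that of Srsf10 in controls and that of Srsf6 in both direct comparisons, and none of these passed the adjusted test.

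Other genes of the SR family and of the splicing pathway were read from lists chosen with earlier results of these data known. Each list's counts stand beside those of all genes tested, of which 25.9% were called lower and 28.3% higher in mutant cells, and 28.1% lower and 29.3% higher in WT cells. Srsf3, the SR gene near Cdkn1a, fell to 405 and 430 CPM in mutant doxorubicin libraries, against 934 and 944 CPM in mutant controls, and to 461 and 412 CPM in WT doxorubicin libraries, against 1029 and 950 CPM in WT controls. Tra2a, the paralog of Tra2b, had 957 and 907 CPM in mutant doxorubicin libraries, against 934 and 908 CPM in mutant controls, and 985 and 960 CPM in WT doxorubicin libraries, against 925 and 905 CPM in WT controls. It was not called (log2 fold change 0.02 ± 0.06 in mutant and 0.09 ± 0.06 in WT cells). Srsf12, a scarce SR gene, rose to 3.16 ± 0.170 CPM in mutant doxorubicin libraries, against 0.460 ± 0.0202 CPM in mutant controls, and to 3.49 ± 1.30 CPM in WT doxorubicin libraries, against 0.507 ± 0.177 CPM in WT controls (log2 fold change 2.77 ± 0.33 and 2.80 ± 0.31).

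Of 25 tested genes of other SR-like and arginine-serine domain proteins, Tra2a and Srsf12 among them, 20 fell and 1 rose in mutant cells, and the same counts held in WT cells, with a median of -0.51 and -0.53. The deepest falls on average over the genotypes, a comparison that called 32.6% of all genes lower and 33.7% higher, were those of Pnn, Rnps1 and Arglu1. Pnn, which encodes the exon-junction and cell-adhesion factor pinin, fell to 83.4 ± 2.04 CPM in mutant doxorubicin libraries, against 151 ± 1.05 CPM in mutant controls (log2 fold change -0.85 ± 0.07), and had a log2 fold change of -1.06 ± 0.07 in WT cells. Arglu1, a splicing coactivator gene, fell, with a log2 fold change of -0.83 ± 0.07 in mutant and -0.83 ± 0.07 in WT cells. Rnps1, a splicing activator bound to exon junctions, fell too (-0.94 ± 0.23 in mutant and -0.84 ± 0.22 in WT cells), at a mean of 1.47 to 2.83 CPM.

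Of 16 tested genes for SR kinases, phosphatases and nuclear import, 9 fell and 2 rose in mutant cells, and 9 fell and none rose in WT cells, against 25.9% of all genes lower and 28.3% higher in mutant cells and 28.1% and 29.3% in WT cells. The list's median was -0.40 in mutant and -0.30 in WT cells. Prpf4b, a kinase of spliceosome proteins, had a log2 fold change of -0.74 ± 0.07 in mutant and -0.82 ± 0.07 in WT cells, Hipk2 one of -0.79 ± 0.31 and -0.87 ± 0.30, and the phosphatase subunit gene Ppp1cc one of -0.69 ± 0.15 and -0.76 ± 0.15. Hipk2 was scarce, with group means of 0.92 to 1.66 CPM. The 2 genes that rose in mutant cells encode CLK kinases of SR proteins, Clk3 (0.71 ± 0.18) and Clk4 (0.29 ± 0.08). In WT cells they were at 0.23 ± 0.17 and 0.17 ± 0.08, neither called, and the difference between the responses was not called for either (edgeR adjusted p = 0.905 for Clk3 and 0.994 for Clk4). Clk3 had low group means, of 2.85 to 4.67 CPM.

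Of 26 tested hnRNP genes, which encode RNA-binding proteins that often act against SR proteins at splice sites, 19 fell in mutant cells and 21 in WT cells, and none was called higher in either, against 25.9% of all genes lower in mutant and 28.1% in WT cells. The list's median was -0.50 in mutant and -0.53 in WT cells. Syncrip fell to 265 ± 2.25 CPM in mutant doxorubicin libraries, against 706 ± 4.56 CPM in mutant controls, and to 227 ± 22.4 CPM in WT doxorubicin libraries, against 677 ± 38.2 CPM in WT controls. Hnrpdl had a log2 fold change of -1.34 ± 0.07 in both genotypes. Hnrnpa1 came next by average fall but stood under 0.4 CPM in every group mean, its counts may be split among near-identical copies, and it was not called in either genotype on its own.

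Of 40 tested core spliceosome genes, 16 fell and 4 rose in mutant cells and 18 fell and 4 rose in WT cells, against 25.9% of all genes lower and 28.3% higher in mutant cells and 28.1% and 29.3% in WT cells. The list's median was -0.24 in mutant and -0.29 in WT cells. The genes named here had the largest changes on average over both genotypes. U2af1l4 (-0.99 ± 0.33 in mutant and -1.05 ± 0.33 in WT cells), the 3' splice site gene U2af1 (-0.65 ± 0.26 and -0.97 ± 0.26) and Snrnp40 (-0.78 ± 0.10 and -0.79 ± 0.10) fell, and Aqr (0.88 ± 0.17 and 0.92 ± 0.17), Prpf6 (0.67 ± 0.14 and 0.73 ± 0.14) and Prpf38a (0.60 ± 0.08 and 0.61 ± 0.08) rose. Of 17 tested genes of nonsense-mediated decay and the exon junction complex, 9 fell and 2 rose in each genotype, against 25.9% of all genes lower and 28.3% higher in mutant cells and 28.1% and 29.3% in WT cells. The list's median was -0.40 in mutant and -0.39 in WT cells. Upf3b, a decay factor that bridges the exon junction complex to UPF2, rose to 79.2 ± 3.82 CPM in mutant doxorubicin libraries, against 22.6 ± 1.04 CPM in mutant controls, and to 82.5 ± 3.28 CPM in WT doxorubicin libraries, against 25.5 ± 3.04 CPM in WT controls. Its paralog Upf3a had 0.57 ± 0.15 in mutant and 0.34 ± 0.15 in WT cells, called in mutant and not in WT cells, and Smg6, a decay endonuclease gene, had 0.22 ± 0.13 and 0.51 ± 0.13, called in WT and not in mutant cells. The difference between the responses was called for neither. Magohb (-0.92 ± 0.12 and -0.88 ± 0.12), Ncbp1 (-0.75 ± 0.09 and -0.69 ± 0.09) and Casc3 (-0.67 ± 0.13 and -0.76 ± 0.13) fell in both.

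**Figure D5:**
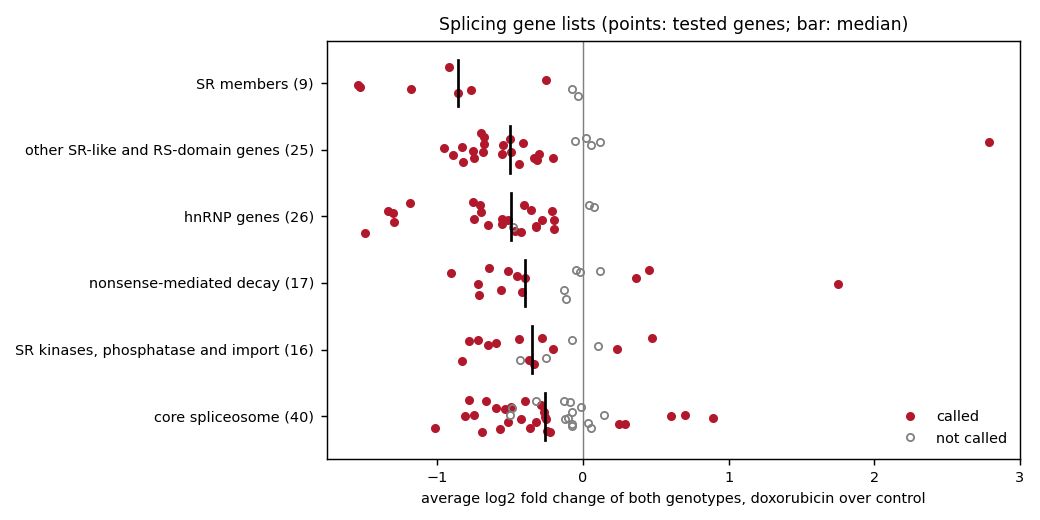
Average log2 fold change over both genotypes (horizontal axis) of each tested gene in the SR factor set and in 5 related lists, with the number of tested genes in brackets; filled points were called, open points were not, and bars mark medians. All medians lie below 0, and single genes such as Srsf12 and Upf3b lie far above it.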

How the data were processed

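The deposited table gives unnormalized read counts by gene. Per the submitters' processing notes, the authors used Bowtie2, HTSeq and mouse build mm9. Versions, annotation, strand setting and the treatment of reads with several matches are not given in the sources used here.

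The members and lists were chosen with earlier results of these data known. With edgeR 4.0.16 in R 4.3.3, filterByExpr (minimum count 10, minimum total 15) kept 12255 genes. TMM scaled the 8 libraries, which entered a single quasi-likelihood fit of the 4 groups, leaving 4 residual degrees of freedom. Calls rest on two-sided p-values with Benjamini-Hochberg adjustment across the 12255 genes, at a threshold of 0.05. The SE is the log2 fold change divided by the square root of F. Alternatives were other scaling factors, DESeq2 1.42.0, limma-voom (limma 3.58.1), other filters, the library letter as a block, fits restricted to the libraries being compared, and leaving out each library. The script was tested on simulated data, where few genes changed, as many up as down, and only in WT doxorubicin libraries. Far more genes were called in the real responses, so that test does not cover their setting. From each related list, up to 3 called genes per direction with the largest average response are named. Promoters are from RefSeq on GRCm38.p6, not mm9, and all 10 members matched by symbol.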

Additional observations from a re-analysis of the deposited data

How the results depend on the processing

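With 2 libraries per group, small differences could not be resolved. The 7 falls in each response held with every scaling, filter and tool tried, with the additional WT call of Srsf9 under upper-quartile scaling. Leaving out mutant control A or mutant doxorubicin B left 6 mutant calls, and leaving out WT doxorubicin B gave 8 WT calls, of which 7 were lower and Srsf5 was higher. In the difference between the responses, 9 genes of the whole table were called, against 18 with DESeq2, 4 with limma-voom, 48 with no filter, 5 with the 5 CPM filter, 14 with the replicate block and 0 to 51 with 1 library left out. Between genotypes, leaving out 1 library gave 388 to 848 calls in controls and 530 to 1214 with doxorubicin, and 0 to 1 and 0 to 2 SR genes. In controls, 1 SR gene, Srsf10, was called with DESeq2, limma-voom, the 5 CPM filter or only the 4 control libraries. The cause of these changes was not tested.

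The Srsf6 difference between the responses was 0.0017 with limma-voom. The Srsf9 control difference was 0.0022 with DESeq2 size factors, 0.0190 with upper-quartile factors, 0.0023 with DESeq2 and 0.0093 with no filter. With 1 library left out, Srsf5 ranged from -0.1179 to 0.0328 in the average response, -0.0929 to 0.2087 in the WT response, -0.2829 to 0.0168 between genotypes with doxorubicin and -0.0030 to 0.1142 in controls. Srsf9 ranged from -0.0649 to 0.0098 in the mutant response and -0.0345 to 0.0402 between controls. Srsf1 ranged from -0.0680 to 0.0939 in the difference between the responses and -0.0046 to 0.1595 between genotypes with doxorubicin, and in the difference between the responses Srsf11 ranged from -0.0344 to 0.1089 and Srsf6 from -0.1038 to 0.0858. No scaling moved the median of all genes by over 0.1. Such scalings hold the bulk of genes near no change, so this median does not test the SR falls or the RNA content per cell.

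The letters A and B are only names in the labels, and the deviations of A from B correlated between groups by -0.055 to 0.103 over genes. With the replicate block, no call of a member changed.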

Other observations

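Among the related splicing lists, 5 genes were called between mutant and WT cells with doxorubicin, all higher in mutant cells, and were named after their values were seen. They were 1 of 25 tested SR-like genes, 1 of 16 kinase, phosphatase and import genes, 1 of 40 core spliceosome genes, 1 of 26 hnRNP genes and 1 of 17 decay genes, where 7.74% of all genes were called in either direction. In that order they were Bclaf1, a serine-arginine rich transcription and splicing factor gene (270 ± 1.53 CPM in mutant and 220 ± 13.8 CPM in WT doxorubicin libraries, log2 difference 0.30 ± 0.07, edgeR adjusted p = 0.0123), the SR kinase gene Srpk2 (110 ± 3.23 and 91.3 ± 4.92 CPM, 0.27 ± 0.07, adjusted p = 0.0224), the spliceosome gene Prpf31 (0.51 ± 0.14, adjusted p = 0.0229), Ptbp3 (0.25 ± 0.07, adjusted p = 0.0289) and the decay kinase gene Smg1 (127 ± 17.1 and 103 ± 4.64 CPM, 0.30 ± 0.09, adjusted p = 0.0406). No gene of these lists was called between control libraries or in the difference between the responses. All 5 genes nevertheless had a higher mean in mutant than in WT controls, so this direction was not particular to doxorubicin. The control means were 417 and 368 CPM for Bclaf1, 130 and 115 for Srpk2, and 11.1 and 9.72 for Prpf31. For Ptbp3 they were 914 and 815 CPM, and for Smg1 181 and 157.5 CPM. Whether the 5 calls with doxorubicin hold without either WT doxorubicin library was not tested.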
